A study of Mus musculus with 18 samples.

Results

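The genes described here are 34 genes of the unfolded protein response and of secretory protein folding, followed in Brunner's glands, the mucus-secreting glands of the duodenal submucosa. They were chosen by name from knowledge of the pathway, with earlier results of these data known. The list holds 34 of the 17204 genes on the arrays, and all 34 were found. Each gene had 1 row, headed by an Ensembl mouse gene identifier, and the list paired each identifier with its symbol. All 34 passed the filter for genes bright enough to be tested, and each lay above its level of 4.79 on all 18 arrays. The glands were cut by laser microdissection from individual male mice of the outbred CD-1 strain, 1 mouse per array, in 6 groups of 3. They were GLP-1R-/- mice untreated, 6 h after exendin-4 and 18 h after exendin-4, and wild-type mice in the same 3 conditions. The drug, exendin-4, activates the receptor for glucagon-like peptide 1, a gut hormone, and GLP-1R-/- mice lack this receptor. The labels name no vehicle-injected group, no age and no littermate controls, so that injection and hour of collection cannot be told apart from the agonist, nor breeding background from the genotype.

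Proteins bound for secretion are folded in the endoplasmic reticulum (ER), where chaperones hold unfolded chains and disulfide isomerases form and rearrange their disulfide bonds. When unfolded protein builds up, the sensors IRE1, ATF6 and PERK raise the transcription of chaperones and of the machinery that removes misfolded protein, known as ER-associated degradation. The PERK arm acts through the translation of ATF4, which also answers amino acid shortage. Mucus-secreting epithelia use a version of this system of their own, with the IRE1 relative encoded by Ern2 and the mucin-folding isomerase encoded by Agr2.

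Signals, summarised with RMA, are given on the log2 scale, where a difference of 1 means 2-fold. Differences were tested with limma over the 12775 genes that passed the filter, and a gene was called at a Benjamini-Hochberg adjusted p under 0.05. Replicate numbers are those of the labels. One array stood apart: knockout 6 h replicate 13 correlated with the other 17 arrays between 0.911 and 0.945 across genes, while the pairs among those 17 lay between 0.951 and 0.993. Of the 34 genes, 10 had their lowest and 7 their highest value of all 18 arrays on that array. It lay below both other knockout 6 h arrays for 21 genes and above both for 11. Differences that rest on the knockout 6 h group are therefore also given without it, while counts of groups that do not overlap are given with it. Markers of other cell types, RNA quality controls and further genes of the pathway could not be named in the files and were not analysed here. In a tissue sample, fewer cells of a type and less RNA per cell cannot be told apart.

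**Figure D1:**
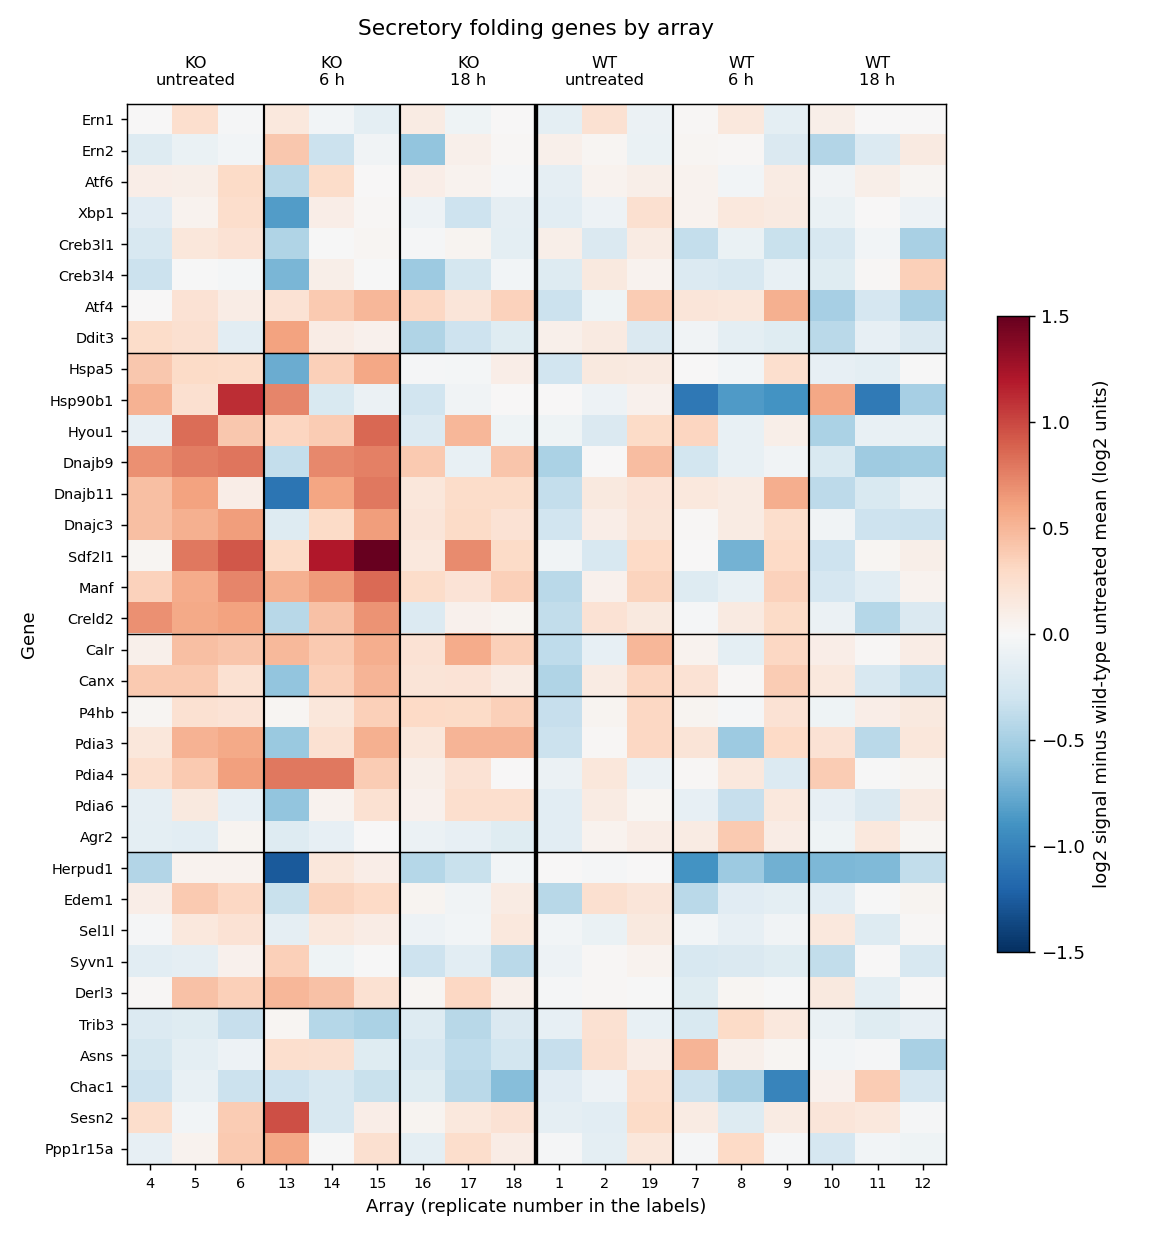
Each row is 1 of the 34 genes and each column 1 array, grouped by genotype (KO, GLP-1R-/-; WT, wild type) and time, and the colour gives the log2 signal minus the mean of the 3 wild-type untreated arrays, with colours saturating at 1.5. Horizontal lines part the functional classes. Chaperone genes such as Dnajb9, Creld2 and Manf are red on all 3 untreated knockout arrays, Herpud1 and Hsp90b1 are blue on all 3 wild-type 6 h arrays, and replicate 13 differs from its neighbours in most rows.

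The start regions of some of these genes carry a sequence that is a textbook target of ATF6, the ER stress element, made of CCAAT and CCACG with 9 bases of any kind between them. RefSeq promoter windows on build GRCm38.p6, from 250 bases before to 50 after the start, were at hand for 29 of the 34 genes. The element was found on either strand in 9 of the 29 (31%), against 0.119% of all 32851 windows. Shares of the 29 count genes, and Creb3l4 had several windows, while shares of all windows count windows. Both the list and the element come from knowledge of this pathway, so that the excess is a description and was not tested. It lay at up to 212 bases before the start, and Hsp90b1 had a pair. The matches are shown because, of the motifs searched, this one exceeded its share in all windows by the widest margin. They are read 5′ to 3′ along the element, with the CCAAT and CCACG blocks in capitals:
Calr (chr8:84847075-84847093, plus strand): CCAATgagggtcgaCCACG
Canx (chr11:50325800-50325818, minus strand): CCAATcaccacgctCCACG
Creld2 (chr15:88819520-88819538, minus strand): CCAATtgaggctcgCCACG
Derl3 (chr10:75893242-75893260, minus strand): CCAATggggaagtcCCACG
Dnajc3 (chr14:118937827-118937845, plus strand): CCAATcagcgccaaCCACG
Hsp90b1 (chr10:86705533-86705551, plus strand): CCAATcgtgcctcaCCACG
Hsp90b1 (chr10:86705638-86705656, minus strand): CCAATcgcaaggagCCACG
Hspa5 (chr2:34772025-34772043, plus strand): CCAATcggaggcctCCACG
Pdia6 (chr12:17266491-17266509, plus strand): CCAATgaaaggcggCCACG
Syvn1 (chr19:6046532-6046550, plus strand): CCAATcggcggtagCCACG

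The other motifs fixed for the list were searched in the same windows, on both strands. The amino acid response element TGATGNAA, bound by ATF4 and its partners, was found in Chac1, Asns, Trib3 and Herpud1, which is 4 of 29 (13.8%) against 3.97% of all windows. The cyclic AMP response element TGACGTCA was found in 1 of 29 (3.45%), Ppp1r15a, against 1.79% of all windows. The XBP1 and ATF6 element TGACGTGG was in 0 of 29, against 0.676% of all windows. A match is a description of the letters and not evidence of binding. The windows of Hsp90b1, Herpud1 and Chac1, whose values stood farthest from untreated mice in wild-type glands at 6 h, are printed with the matches in capitals:
Hsp90b1 (chr10:86705395-86705694, minus strand): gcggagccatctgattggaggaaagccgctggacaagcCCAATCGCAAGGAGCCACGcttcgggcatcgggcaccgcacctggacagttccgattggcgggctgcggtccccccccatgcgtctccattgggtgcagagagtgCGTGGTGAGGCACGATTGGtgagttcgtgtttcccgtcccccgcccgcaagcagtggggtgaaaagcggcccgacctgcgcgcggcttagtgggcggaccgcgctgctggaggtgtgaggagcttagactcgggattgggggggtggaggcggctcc
Herpud1 (chr8:94386179-94386478, plus strand): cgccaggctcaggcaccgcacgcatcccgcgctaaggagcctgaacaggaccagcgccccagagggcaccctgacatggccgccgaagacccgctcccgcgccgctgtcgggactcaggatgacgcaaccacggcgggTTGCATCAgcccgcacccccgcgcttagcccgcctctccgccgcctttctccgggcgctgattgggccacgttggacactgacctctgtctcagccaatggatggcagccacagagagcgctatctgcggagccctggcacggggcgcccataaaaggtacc
Chac1 (chr2:119350992-119351291, plus strand): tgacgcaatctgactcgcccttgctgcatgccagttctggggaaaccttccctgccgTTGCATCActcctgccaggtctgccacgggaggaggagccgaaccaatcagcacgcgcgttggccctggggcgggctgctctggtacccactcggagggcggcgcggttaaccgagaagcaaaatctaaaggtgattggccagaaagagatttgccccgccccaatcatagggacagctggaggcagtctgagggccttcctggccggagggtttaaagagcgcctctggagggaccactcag

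The first question was whether the agonist altered the folding machinery of wild-type glands by 6 h. None of the 34 genes was called (limma), where 433 of the 12775 genes tested (3.39%) were. An unadjusted p under 0.05 was found for 3 of the 34 and for 1843 of the 12775. The median difference of the 34 genes was 0.012 on the log2 scale, against 0.022 over all genes tested, with 18 of them positive. It was -0.067 without untreated replicate 1 and 0.088 without untreated replicate 19. For 32 of the 34 the 95% interval of the difference, unadjusted for the number of genes, lay within 2-fold in either direction. The master chaperone Hspa5, which encodes BiP, measured 12.04, 11.99 and 12.28 in wild-type 6 h mice and 11.75, 12.18 and 12.16 in untreated ones. Its difference was 0.071 with an interval of -0.43 to 0.57. For Xbp1, the transcription factor activated by IRE1, the difference was 0.12 (-0.30 to 0.53).

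The 3 genes with an unadjusted p under 0.05 at 6 h were all lower. Herpud1 (ENSMUSG00000031770_at), an ER membrane protein that gathers the degradation machinery, measured 11.74, 11.72 and 11.74 in untreated wild-type mice, 10.83, 11.19 and 11.01 at 6 h and 11.06, 11.07 and 11.36 at 18 h. Its untreated arrays lay within a few hundredths of each other and above every treated wild-type array. At 6 h it stood -0.72 (standard error 0.271, adjusted p = 0.192 by limma) from untreated, with an adjusted p of 0.00372 to 0.47 under 13 alternatives. The SD of this gene was 0.80 in the knockout 6 h group, which holds replicate 13, and at most 0.28 in the other 5 groups. In an unplanned fit with replicate 13 left out of the shared spread Herpud1 was called, at -0.72 (standard error 0.145, adjusted p = 0.00651 by limma), where 6.89% of all genes were called. It was also called in a fit to the compared groups alone (adjusted p = 0.0244) and with array weights (adjusted p = 0.00372).

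Hsp90b1 (ENSMUSG00000020048_at), the ER member of the HSP90 chaperones, measured 9.53, 9.76 and 9.71 in wild-type 6 h mice and 10.62, 10.53 and 10.68 in untreated ones. The groups did not overlap. Hsp90b1 thus differed by -0.94 (standard error 0.322, adjusted p = 0.141 by limma), with an adjusted p of 0.00893 to 0.354 under 13 alternatives. It was called in a fit to the compared groups alone (adjusted p = 0.00893) and with array weights (adjusted p = 0.0211), and not without replicate 13 (adjusted p = 0.0652). Wild-type mice at 18 h measured 11.20, 9.55 and 10.11, on both sides of the untreated arrays. Chac1 (ENSMUSG00000027313_at), an ATF4 target that degrades glutathione, measured 6.39, 6.22 and 5.72 in wild-type 6 h mice and 6.54, 6.63 and 6.96 in untreated ones, and every 6 h array was below every untreated one. Its difference was -0.60 (standard error 0.186, adjusted p = 0.099 by limma). A further gene without overlap was Syvn1, the ubiquitin ligase of ER-associated degradation, at 9.39 ± 0.029 in wild-type 6 h mice and 9.61 ± 0.066 in untreated mice (SD, n = 3 each). These 4 genes are 11.8% of the 34, where the groups did not overlap for 23.8% of all genes tested.

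By class, all 5 genes of ER-associated degradation had negative 6 h differences in wild-type mice, from -0.72 to -0.048. Edem1, which passes misfolded glycoproteins on for disposal, was at -0.24, and Sel1l, the partner of Syvn1, at -0.074. Of the 9 chaperones and co-chaperones, 6 were positive, and none of them exceeded 0.27, the value of Dnajb11, a BiP co-chaperone. Among lectin chaperones, which hold glycoproteins during folding, Canx had the larger difference. It measured 8.93, 8.73 and 9.09 in wild-type 6 h mice and 8.26, 8.84 and 9.04 in untreated mice, groups that overlap, with a difference of 0.20 (standard error 0.241, adjusted p = 0.816 by limma). Without wild-type untreated replicate 1, its lowest array, the difference was -0.023 (adjusted p = 0.995), and the adjusted p was 0.567 to 0.995 under 13 alternatives. The 5 disulfide isomerases lay between -0.10 and 0.21, the value of Agr2, and the 8 sensors and transcription factors between -0.27 for Creb3l1 and 0.30 for Atf4.

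At 18 h in wild-type mice again none of the 34 genes was called against untreated mice (limma), where 0.196% of all genes were. Of the 34, 1 had an unadjusted p under 0.05, as had 1073 of the 12775 genes tested. This was Atf4, at -0.41 (adjusted p = 0.454 by limma). The median difference was -0.11, against 0.037 over all genes tested. It was -0.18 without untreated replicate 1 and -0.018 without untreated replicate 19. Of the 34 genes 25 were negative, while 57.7% of all genes were positive. All 9 chaperones and co-chaperones were negative, from -0.43 for Dnajb9 to -0.064 for Sdf2l1, and so were the 5 genes of ER-associated degradation. Herpud1 was the only one of the 34 whose 18 h and untreated arrays did not overlap, with a difference of -0.57 (standard error 0.271, adjusted p = 0.592 by limma), where 16.4% of all genes had groups that did not overlap. With replicate 13 left out of the shared spread the adjusted p of Herpud1 was 0.0866 (limma). It was not called there, where 0.673% of all genes were. The 6 h and 18 h comparisons share their untreated arrays.

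**Figure D2:**
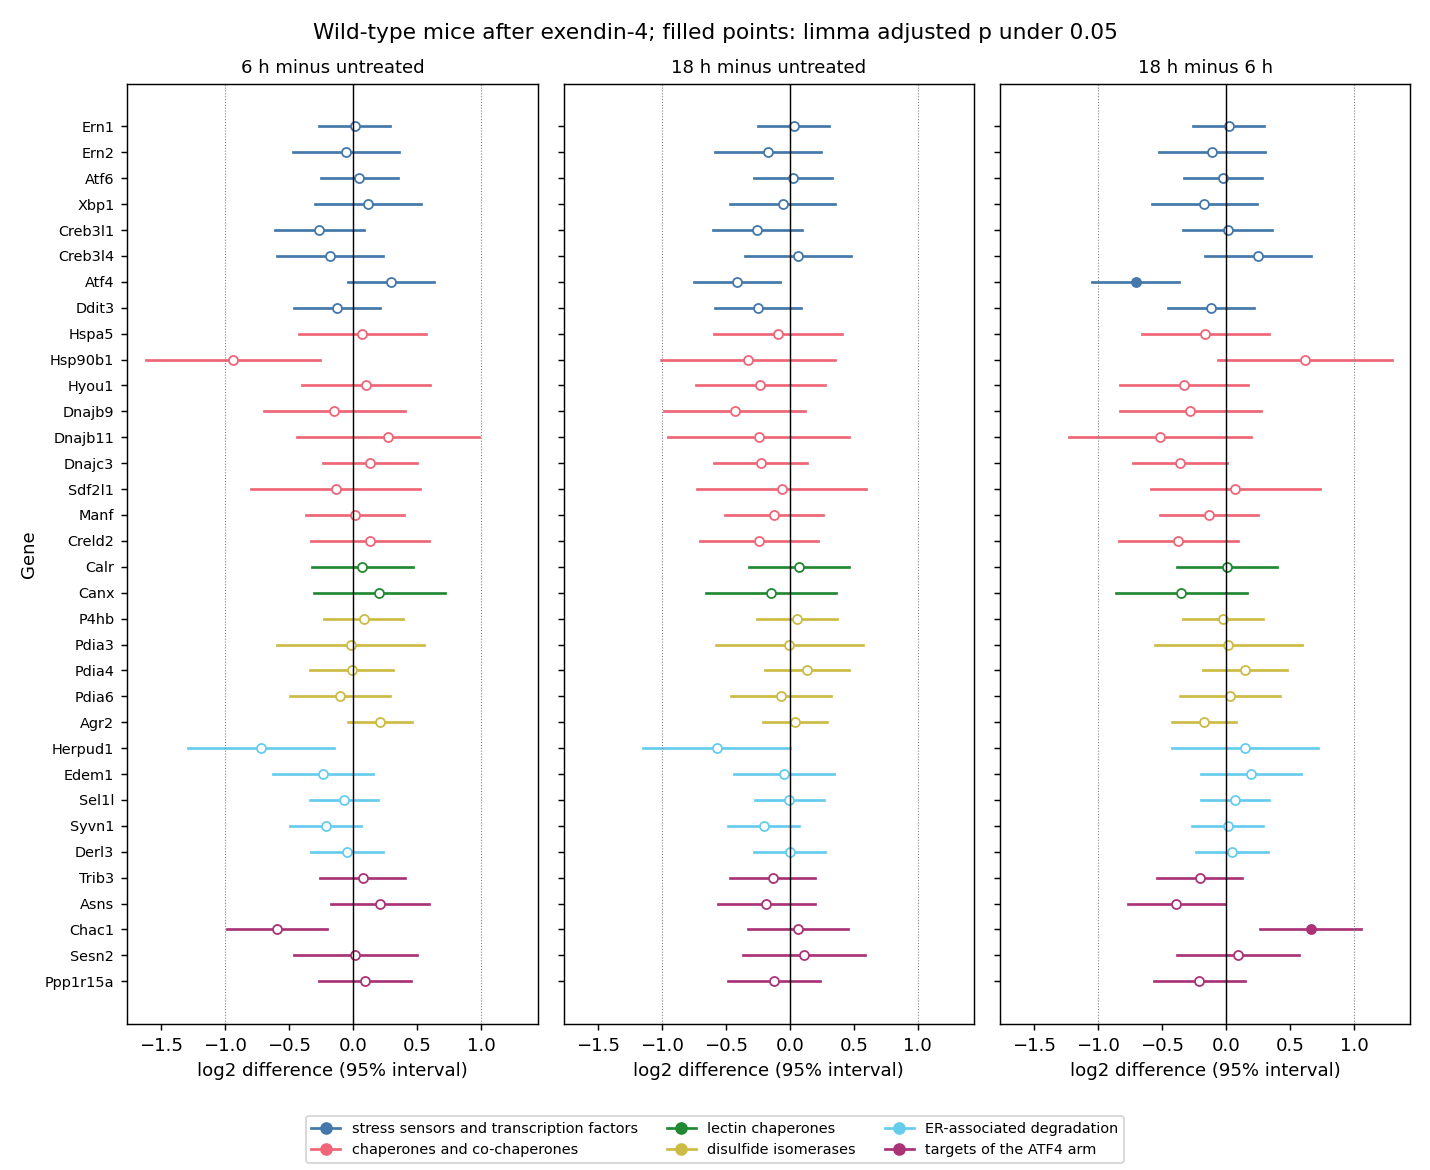
Log2 differences between wild-type groups of 3 mice for the 34 genes, as points with unadjusted 95% intervals from limma, coloured by functional class; filled points had an adjusted p under 0.05 and dotted lines mark 2-fold. Filled points occur in the right panel alone, for Atf4 at -0.71 and Chac1 at 0.66, and Herpud1, Hsp90b1 and Chac1 lie farthest left at 6 h.

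Wild-type mice at 18 h were compared directly with those at 6 h, a comparison free of the untreated arrays, and 2 of the 34 genes (5.88%) were called, 1 higher and 1 lower, where 10.9% of all genes were called, 4.82% higher and 6.05% lower. Atf4 (ENSMUSG00000042406_at), which encodes the transcription factor of the PERK arm, measured 10.43, 10.68 and 10.44 at 18 h and 11.11, 11.10 and 11.47 at 6 h, with every 18 h array below every 6 h one. It was 1.63-fold lower at 18 h, a difference of -0.71 (standard error 0.16, adjusted p = 0.00853 by limma). Untreated wild-type mice, at 10.61, 10.87 and 11.31, overlapped both. The call was lost without wild-type 6 h replicate 9 at -0.59 (adjusted p = 0.0541), and the adjusted p was 0.00171 to 0.0541 under 13 alternatives.

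Chac1 went the other way and was 1.58-fold higher at 18 h, at 6.77, 7.09 and 6.45 against 6.39, 6.22 and 5.72 at 6 h, a difference of 0.66 (standard error 0.186, adjusted p = 0.0292 by limma). The untreated level of 6.71 ± 0.22 (SD, n = 3) was close to that at 18 h, 6.77 ± 0.32. This gene is a target of ATF4, and in these mice the transcripts of the pair differed in opposite directions. The Chac1 call was lost without wild-type 6 h replicate 9, at 0.46 (adjusted p = 0.174), without 18 h replicate 10, at 0.66 (adjusted p = 0.0805), and without replicate 11, at 0.50 (adjusted p = 0.145). It was also lost in a fit to the groups compared (adjusted p = 0.0828), and the adjusted p was 0.00656 to 0.174 under 13 alternatives. Asns, the asparagine synthetase induced by ATF4, averaged 10.04 ± 0.26 in the 18 h group and 10.43 ± 0.27 in the 6 h group (SD, n = 3 each), a difference of -0.39 (standard error 0.18, adjusted p = 0.197 by limma). Trib3, Sesn2 and Ppp1r15a, also induced in the ATF4 arm, were at -0.21, 0.093 and -0.21 and were not called.

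For 8 of the 34 genes (23.5%) the 18 h and 6 h arrays of wild-type mice did not overlap, where 35.7% of all genes did not. Chac1 was higher at 18 h and 7 were lower: Atf4, Asns, Ppp1r15a, Xbp1 and the BiP co-chaperones or partners Dnajb11, Dnajc3 and Creld2. Dnajb11 measured 10.02, 10.18 and 10.31 at 18 h and 10.57, 10.53 and 10.96 at 6 h, a difference of -0.52 (standard error 0.336, adjusted p = 0.389 by limma). It was called in an unplanned fit with replicate 13 left out of the shared spread, at -0.52 (standard error 0.164, adjusted p = 0.0375 by limma), where 18.9% of all genes were, with an adjusted p of 0.0372 to 0.675 under 13 alternatives. The 5 genes of ER-associated degradation were all positive, between 0.013 and 0.20, and the median of the 34 genes was -0.023 against 0.027 over all genes.

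**Figure D3:**
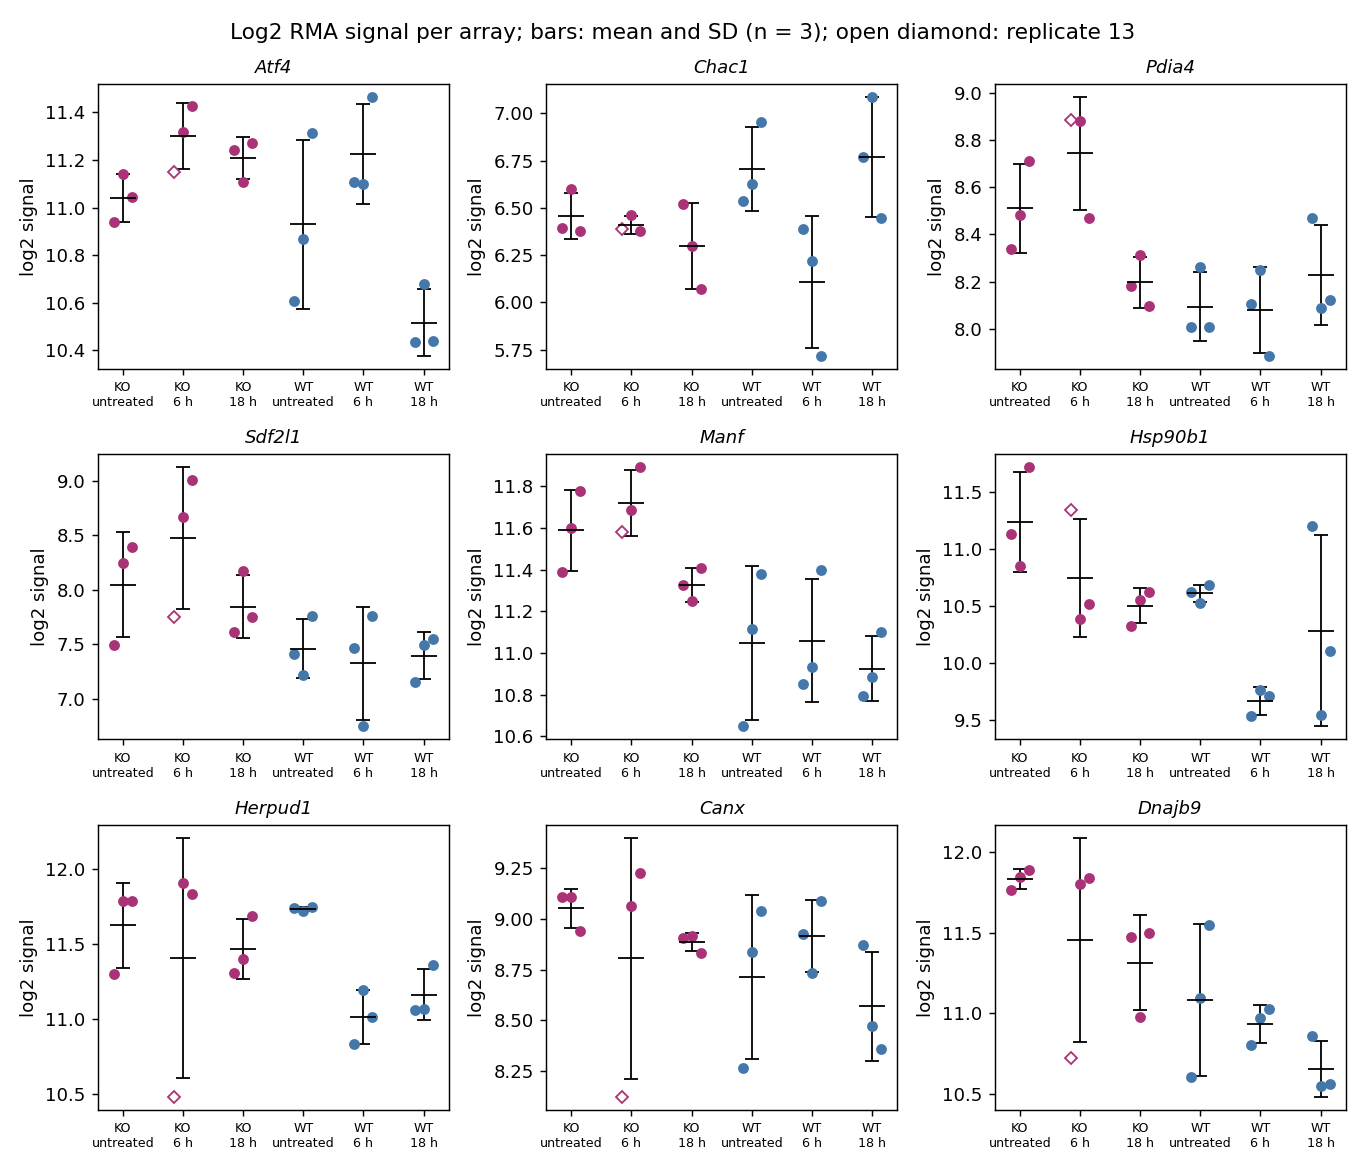
Log2 signal of 9 genes on each of the 18 arrays, GLP-1R-/- groups (KO, purple) left of wild-type groups (WT, blue), with the mean and SD of 3 mice as bars; the open diamond is knockout 6 h replicate 13, and each panel has its own axis, which does not start at 0. Atf4 is lowest in wild-type mice at 18 h, Herpud1 and Hsp90b1 lie low in wild-type mice at 6 h, and the diamond falls far below its group for Herpud1, Canx and Dnajb9.

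Differences between the genotypes without any drug were sought in the untreated groups. None of the 34 genes was called (limma), where 0.618% of all genes were. Of the 34, 5 had an unadjusted p under 0.05, where 962 of the 12775 genes tested did: Dnajb9, Dnajc3, Creld2, Manf and Pdia4. In an unplanned fit with replicate 13 left out of the shared spread again none was called, where 1.07% of all genes were. An unadjusted p under 0.05 was then found for 10 of the 34 and for 1410 of the 12775. All 9 chaperones and co-chaperones were higher in knockouts, by 0.32 to 0.75, with a median of 0.54. Over the 34 genes 25 were positive (73.5%) with a median of 0.16, where 55.3% of all genes were positive with a median of 0.021. The 5 genes of the ATF4 arm had a median of -0.16.

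Dnajb9 (ENSMUSG00000014905_at), a BiP co-chaperone that restrains IRE1, measured 11.76, 11.85 and 11.89 in untreated knockouts and 10.61, 11.09 and 11.55 in untreated wild-type mice. The knockout arrays lay close together above all wild-type arrays, which were spread over nearly 1 log2 unit. The difference was 0.75 (standard error 0.261, adjusted p = 0.361 by limma). Creld2 (ENSMUSG00000023272_at), a stress-induced ER protein with isomerase activity, measured 11.83, 11.72 and 11.75 in untreated knockouts and 10.77, 11.36 and 11.29 in untreated wild-type mice, a difference of 0.62 (standard error 0.219, adjusted p = 0.376 by limma). Dnajc3 (ENSMUSG00000022136_at), another BiP co-chaperone, measured 8.73, 8.82 and 8.91 in untreated knockouts and 7.99, 8.38 and 8.48 in untreated wild-type mice, a difference of 0.54 (standard error 0.174, adjusted p = 0.296 by limma). In these 3 genes no knockout array reached down to a wild-type one. With replicate 13 left out of the shared spread the adjusted p was 0.0739 for Dnajb9, 0.0572 for Creld2 and 0.0667 for Dnajc3 (limma). Hspa5, Hsp90b1, Dnajb9, Dnajb11, Dnajc3, Creld2 and Ddit3 are given array by array by a choice made after their values were seen.

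The groups did not overlap for 8 of the 34 genes (23.5%), 7 higher in knockouts and Trib3 lower, where 13.4% of all genes had groups that did not overlap. The 7 were Hspa5, Hsp90b1, Dnajb9, Dnajc3, Creld2, Manf and Pdia4, of which 6 are chaperones or co-chaperones. Wild-type untreated replicate 1 was low in this list, with a median over the 34 genes of -0.16 relative to its group mean, against 0.033 and 0.15 for replicates 2 and 19. Its part in the difference was measured by leaving it out. The median of the 34 genes was then 0.098, and it was 0.29 without replicate 19, so that the size of the shift moved with these arrays while its sign did not.

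At 6 h after exendin-4, knockouts were compared with wild-type mice, and 3 of the 34 genes (8.82%) were called, all higher in knockouts, where 6.07% of all genes were called and 2.73% were called higher. The 3 were Sdf2l1, Pdia4 and Manf. Sdf2l1 (ENSMUSG00000022769_at), which works with Dnajb11 in the BiP cycle, measured 7.75, 8.67 and 9.01 in knockouts and 7.46, 6.75 and 7.76 in wild-type mice at 6 h. The first knockout value is replicate 13, which lay beside the highest wild-type array, and the other 2 lay above. Sdf2l1 was 2.22-fold higher, a difference of 1.15 (standard error 0.313, adjusted p = 0.0379 by limma), and without replicate 13 1.51 (standard error 0.291, adjusted p = 0.00488 by limma).

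Pdia4 (ENSMUSG00000025823_at), a disulfide isomerase found in chaperone complexes, measured 8.89, 8.88 and 8.47 in knockouts and 8.11, 8.25 and 7.88 in wild-type mice at 6 h. The groups did not overlap. It was 1.59-fold higher, a difference of 0.67 (standard error 0.154, adjusted p = 0.0153 by limma), and without replicate 13 0.60 (standard error 0.164, adjusted p = 0.0409 by limma). Manf (ENSMUSG00000032575_at), a stress-induced protein of the ER that is also secreted, measured 11.58, 11.69 and 11.89 in knockouts and 10.85, 10.93 and 11.40 in wild-type mice, again without overlap. It was 1.58-fold higher, a difference of 0.66 (standard error 0.181, adjusted p = 0.0399 by limma), and without replicate 13 0.73 (standard error 0.197, adjusted p = 0.0375 by limma).

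On the arrays outside 6 h, Sdf2l1 measured 7.49, 8.25 and 8.39 in untreated knockouts and 7.41, 7.22 and 7.76 in untreated wild-type mice, and at 18 h 7.62, 8.17 and 7.75 in knockouts and 7.15, 7.49 and 7.55 in wild-type mice. The genotypes overlapped untreated, with a difference of 0.58, and were apart at 18 h, with a difference of 0.45, and Sdf2l1 was called at neither. Pdia4 measured 8.34, 8.48 and 8.71 in untreated knockouts and 8.01, 8.26 and 8.01 in untreated wild-type mice, and at 18 h 8.18, 8.31 and 8.10 in knockouts and 8.47, 8.09 and 8.12 in wild-type mice. It was apart untreated, by 0.42 (standard error 0.154, adjusted p = 0.415 by limma), and overlapped at 18 h. Manf measured 11.39, 11.60 and 11.78 in untreated knockouts and 10.65, 11.11 and 11.38 in untreated wild-type mice, and at 18 h 11.33, 11.25 and 11.41 in knockouts and 10.79, 10.88 and 11.10 in wild-type mice. Its genotypes were apart at each time, with differences of 0.54 (standard error 0.181, adjusted p = 0.322 by limma) untreated and 0.40 (standard error 0.181, adjusted p = 0.382 by limma) at 18 h.

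These 3 calls depended on single arrays and on the fit. A fit to the knockout and wild-type 6 h arrays alone called none of the 34 genes, where 0.767% of all genes were, with an adjusted p of 0.172 for Pdia4, 0.248 for Sdf2l1 and 0.199 for Manf. The adjusted p of Pdia4 was 0.000954 to 0.172 under 12 alternatives, that of Sdf2l1 0.00038 to 0.248 under 12 alternatives and that of Manf 0.00154 to 0.199 under 12 alternatives, with Manf also lost under a trended robust prior (adjusted p = 0.0526). The Pdia4 call was lost without wild-type replicate 9, at 0.57 (adjusted p = 0.0793). Sdf2l1 was lost without wild-type replicate 7, at 1.22 (adjusted p = 0.0824), or 8, at 0.86 (adjusted p = 0.158), and without knockout replicate 14, at 1.06 (adjusted p = 0.0772), or 15, at 0.88 (adjusted p = 0.0951). Manf was lost without the same 4 arrays, at 0.55 (adjusted p = 0.165), 0.60 (adjusted p = 0.127), 0.68 (adjusted p = 0.0577) and 0.57 (adjusted p = 0.0849).

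With replicate 13 left out, 6 of the 34 genes were called between the genotypes at 6 h, where 6.16% of all genes were: Sdf2l1, Pdia4 and Manf, and also Dnajb9, Herpud1 and Trib3. Herpud1 then differed by 0.86 (standard error 0.162, adjusted p = 0.00433 by limma), with 10.48, 11.90 and 11.84 in knockouts, replicate 13 first, and 10.83, 11.19 and 11.01 in wild-type mice. Dnajb9 differed by 0.89 (standard error 0.211, adjusted p = 0.0195 by limma). Trib3, a pseudokinase that curbs ATF4 signalling, was the one gene called lower in knockouts, at -0.52 (standard error 0.146, adjusted p = 0.0444 by limma). The adjusted p of Herpud1 was 0.000329 to 0.753 under 12 alternatives, that of Dnajb9 0.001 to 0.488 under 12 alternatives and that of Trib3, too dim for the stricter filter, 0.0361 to 0.486 under 11 alternatives. The median of the 34 genes was 0.26 without replicate 13 and 0.11 with it, and over all genes 0.00062 and 0.047.

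Among the genes not called at 6 h, Hsp90b1 measured 11.34, 10.38 and 10.52 in knockouts and 9.53, 9.76 and 9.71 in wild-type mice. Every knockout array was above every wild-type one, and the highest was replicate 13. Hsp90b1 differed by 1.08 (standard error 0.322, adjusted p = 0.0579 by limma) between genotypes, and without replicate 13 0.78 (standard error 0.326, adjusted p = 0.191 by limma), with an adjusted p of 0.0224 to 0.191 under 12 alternatives. Derl3, a channel component of ER-associated degradation typical of secretory cells, was at 7.47 ± 0.14 in knockouts and 7.03 ± 0.11 in wild-type mice (SD, n = 3 each), a difference of 0.44 (standard error 0.133, adjusted p = 0.0598 by limma), and without replicate 13 0.38 (adjusted p = 0.122). Agr2 had a negative difference, at 13.59 ± 0.10 in knockouts and 13.90 ± 0.16 in wild-type mice, a difference of -0.31 (standard error 0.118, adjusted p = 0.13 by limma), and without replicate 13 -0.27 (adjusted p = 0.231). Of the 9 chaperones and co-chaperones 7 were higher in knockouts at 6 h, and all 9 without replicate 13, with a median of 0.52. The 2 exceptions were Hspa5, at -0.0096 with replicate 13 and 0.40 without it, and Dnajb11, at -0.17 and 0.42. The groups did not overlap for 8 genes (23.5%), close to the 23.9% of all genes.

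**Figure D4:**
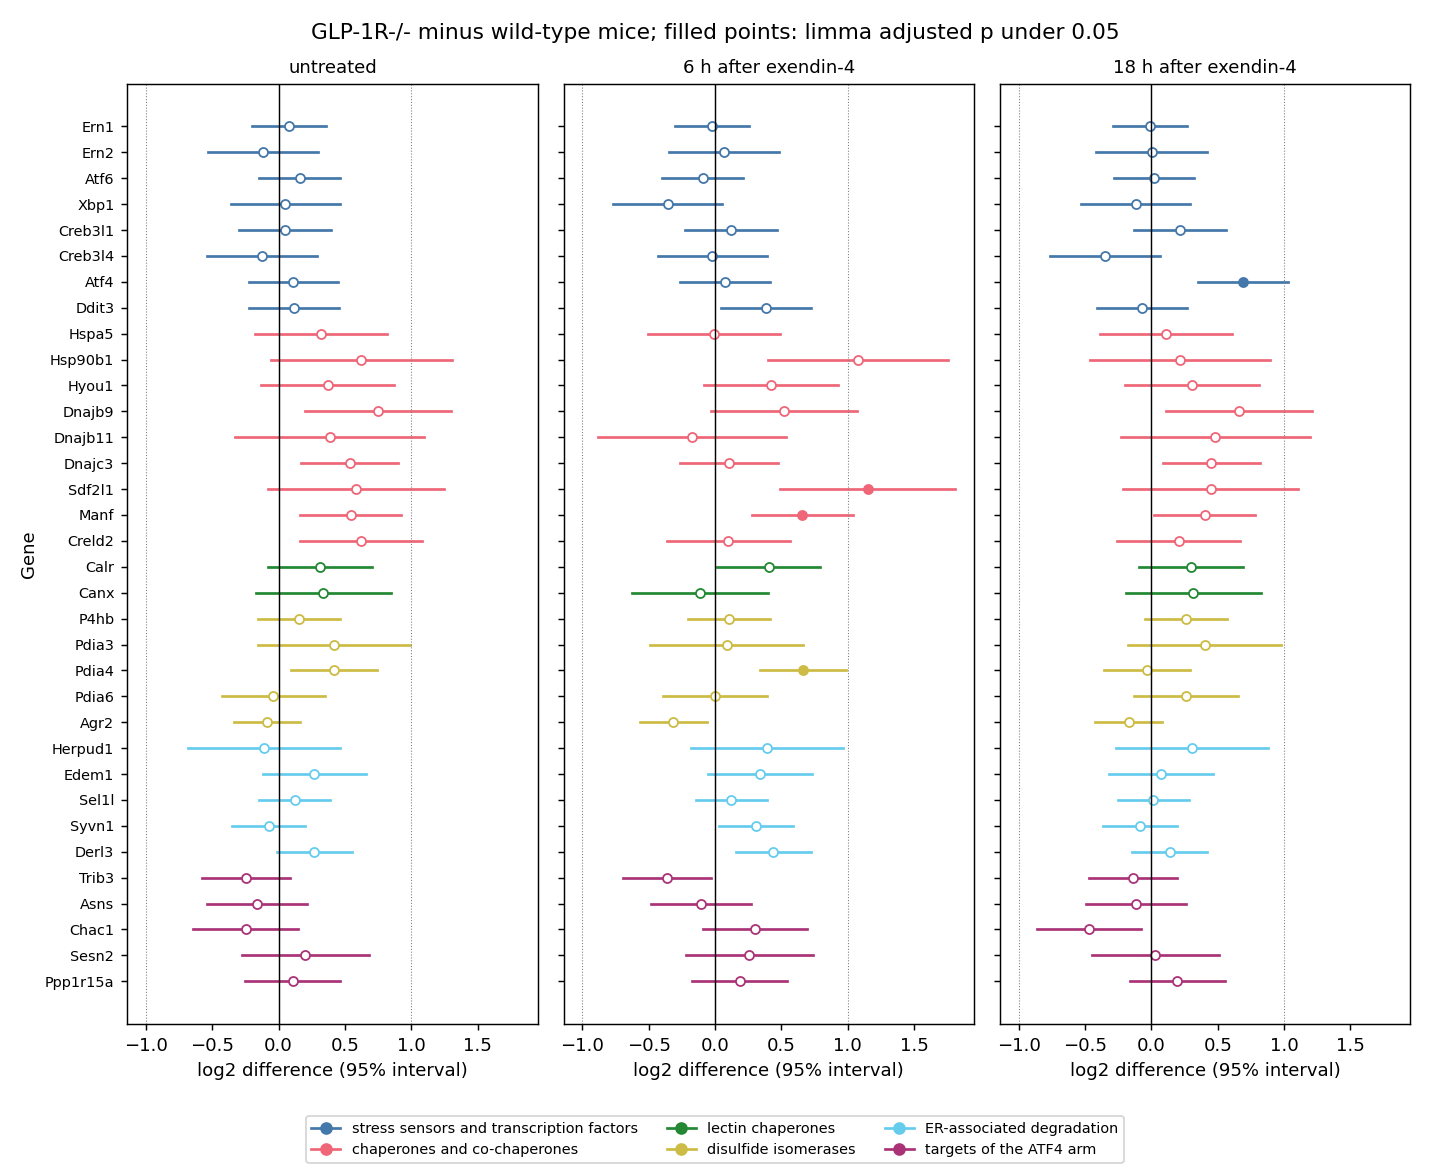
Log2 differences of GLP-1R-/- minus wild-type mice in untreated glands and at each time after exendin-4, as points with unadjusted 95% intervals from limma, coloured by functional class; filled points had an adjusted p under 0.05. The 9 chaperones and co-chaperones lie right of 0 in untreated mice and at 18 h and for 7 of 9 at 6 h, where Hspa5 and Dnajb11 are at 0.40 and 0.42 without replicate 13, with filled points for Sdf2l1, Manf and Pdia4 at 6 h and Atf4 at 18 h.

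At 18 h 1 of the 34 genes (2.94%) was called between the genotypes, where 1.27% of all genes were called and 0.352% were called higher. Atf4 measured 11.24, 11.11 and 11.27 in knockouts and 10.43, 10.68 and 10.44 in wild-type mice, without overlap. It was 1.61-fold higher in knockouts, a difference of 0.69 (standard error 0.16, adjusted p = 0.0407 by limma). The call was lost without any single one of the 6 arrays compared, at 0.67 (adjusted p = 0.126) without knockout replicate 16, 0.74 (adjusted p = 0.0967) without replicate 17, 0.66 (adjusted p = 0.178) without replicate 18, 0.65 (adjusted p = 0.126) without wild-type replicate 10, 0.77 (adjusted p = 0.0835) without replicate 11 and 0.65 (adjusted p = 0.112) without replicate 12. It was also lost with a trended robust prior (adjusted p = 0.0624), and the adjusted p was 0.00267 to 0.178 under 13 alternatives. Atf4 stayed called in an unplanned fit with replicate 13 left out of the shared spread, where 3.34% of all genes were called. The difference there was 0.69 (standard error 0.152, adjusted p = 0.0216 by limma).

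All 9 chaperones and co-chaperones were again higher in knockouts at 18 h, by 0.11 to 0.66, and none was called. Dnajb9 measured 11.47, 10.97 and 11.50 in knockouts and 10.85, 10.55 and 10.56 in wild-type mice, a difference of 0.66 (standard error 0.261, adjusted p = 0.291 by limma), and Dnajc3 was at 8.51 ± 0.052 in knockouts and 8.06 ± 0.15 in wild-type mice (SD, n = 3 each). With replicate 13 left out of the shared spread the adjusted p was 0.0687 for Dnajb9 and 0.0723 for Dnajc3 (limma), and neither was called. Chac1 measured 6.52, 6.30 and 6.07 in knockouts and 6.77, 7.09 and 6.45 in wild-type mice, groups that overlap, a difference of -0.47 (standard error 0.186, adjusted p = 0.29 by limma). Its other knockout arrays read 6.39, 6.46 and 6.38 at 6 h and 6.40, 6.60 and 6.38 untreated. Over the 34 genes 24 were positive (70.6%) with a median of 0.17, which was 0.087 without wild-type replicate 11, where 51.4% of all genes were positive with a median of 0.0073. The groups did not overlap for 10 genes (29.4%) against 23.8% of all genes. The 3 comparisons between genotypes share no arrays.

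Knockouts that had received the drug served to look for a response without its receptor. None of the 34 genes was called at 6 h, at 18 h or between the times (limma), where 0% of all genes were called in each of the 3 comparisons. An unadjusted p under 0.05 was found for 0, 3 and 5 of the 34, and for 1038, 657 and 1141 of the 12775 genes tested. Without replicate 13 it was found for 2, 7 and 10 of the 34, and for 657, 1207 and 1261 of the 12775. None of the 34 was then called, where 0%, 0% and 0.00783% of all genes were. At 6 h the median was -0.057, and 0.033 without replicate 13. The lowest of the 34 was Hsp90b1, at -0.49, and -0.78 without replicate 13. The highest was Sdf2l1, at 0.43, and 0.79 without replicate 13. Atf4 was the 1 gene (2.94%) whose 6 h and untreated knockout arrays did not overlap, where 9.27% of all genes did not, at 11.15, 11.32 and 11.43 at 6 h and 10.94, 11.14 and 11.04 in untreated knockouts, a difference of 0.26 (standard error 0.16, adjusted p = 0.602 by limma), and 0.33 without replicate 13 (adjusted p = 0.938).

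At 18 h 30 of the 34 genes were lower than in untreated knockouts, with a median of -0.15, which was -0.094 without untreated replicate 5, -0.10 without untreated replicate 6 and -0.21 without untreated replicate 4, while 54.0% of all genes were positive with a median of 0.017. All 9 chaperones and co-chaperones, all 5 genes of ER-associated degradation and all 5 of the ATF4 arm were negative. The groups did not overlap for 10 genes (29.4%), 9 of them lower, where 16.5% of all genes did not overlap. Creld2 measured 10.94, 11.21 and 11.18 at 18 h and 11.83, 11.72 and 11.75 in untreated knockouts, a difference of -0.66 (standard error 0.219, adjusted p = 0.801 by limma). Hsp90b1 measured 10.33, 10.55 and 10.62 at 18 h and 11.13, 10.85 and 11.72 in untreated knockouts, a difference of -0.73 (standard error 0.322, adjusted p = 0.958 by limma). For both genes all treated arrays lay below all untreated ones. P4hb, the archetypal disulfide isomerase, was the gene of the 10 that was higher, by 0.16 (-0.15 to 0.47).

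Between 18 h and 6 h in knockouts the groups did not overlap for 5 genes (14.7%), all lower at 18 h, where 13.3% of all genes did not: Pdia4, Manf, Ddit3, Asns and Syvn1. Pdia4 measured 8.18, 8.31 and 8.10 at 18 h and 8.89, 8.88 and 8.47 at 6 h, a difference of -0.55 (standard error 0.154, adjusted p = 0.382 by limma), and -0.48 without replicate 13 (adjusted p = 0.362). Ddit3, which encodes the stress-induced factor CHOP, measured 6.98, 7.12 and 7.25 at 18 h and 8.03, 7.54 and 7.50 at 6 h, replicate 13 first, a difference of -0.57 (standard error 0.16, adjusted p = 0.374 by limma), and -0.40 without that array (adjusted p = 0.404). Herpud1 measured 11.31, 11.40 and 11.69 in knockouts at 18 h and 11.30, 11.79 and 11.79 in untreated ones, which overlap. Canx measured 9.11, 9.11 and 8.94 in untreated knockouts, 8.12, 9.07 and 9.23 at 6 h with replicate 13 first, and 8.91, 8.91 and 8.83 at 18 h, with every 18 h array below the untreated ones. In wild-type mice at 18 h Canx measured 8.87, 8.47 and 8.36. The median of the 34 genes was -0.088, and -0.22 without replicate 13. Atf4, which differed between these times in wild-type mice, was at -0.091 in knockouts (-0.43 to 0.25), and Chac1 at -0.11 (-0.51 to 0.28). Without replicate 13 they were at -0.16 and -0.12.

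**Figure D5:**
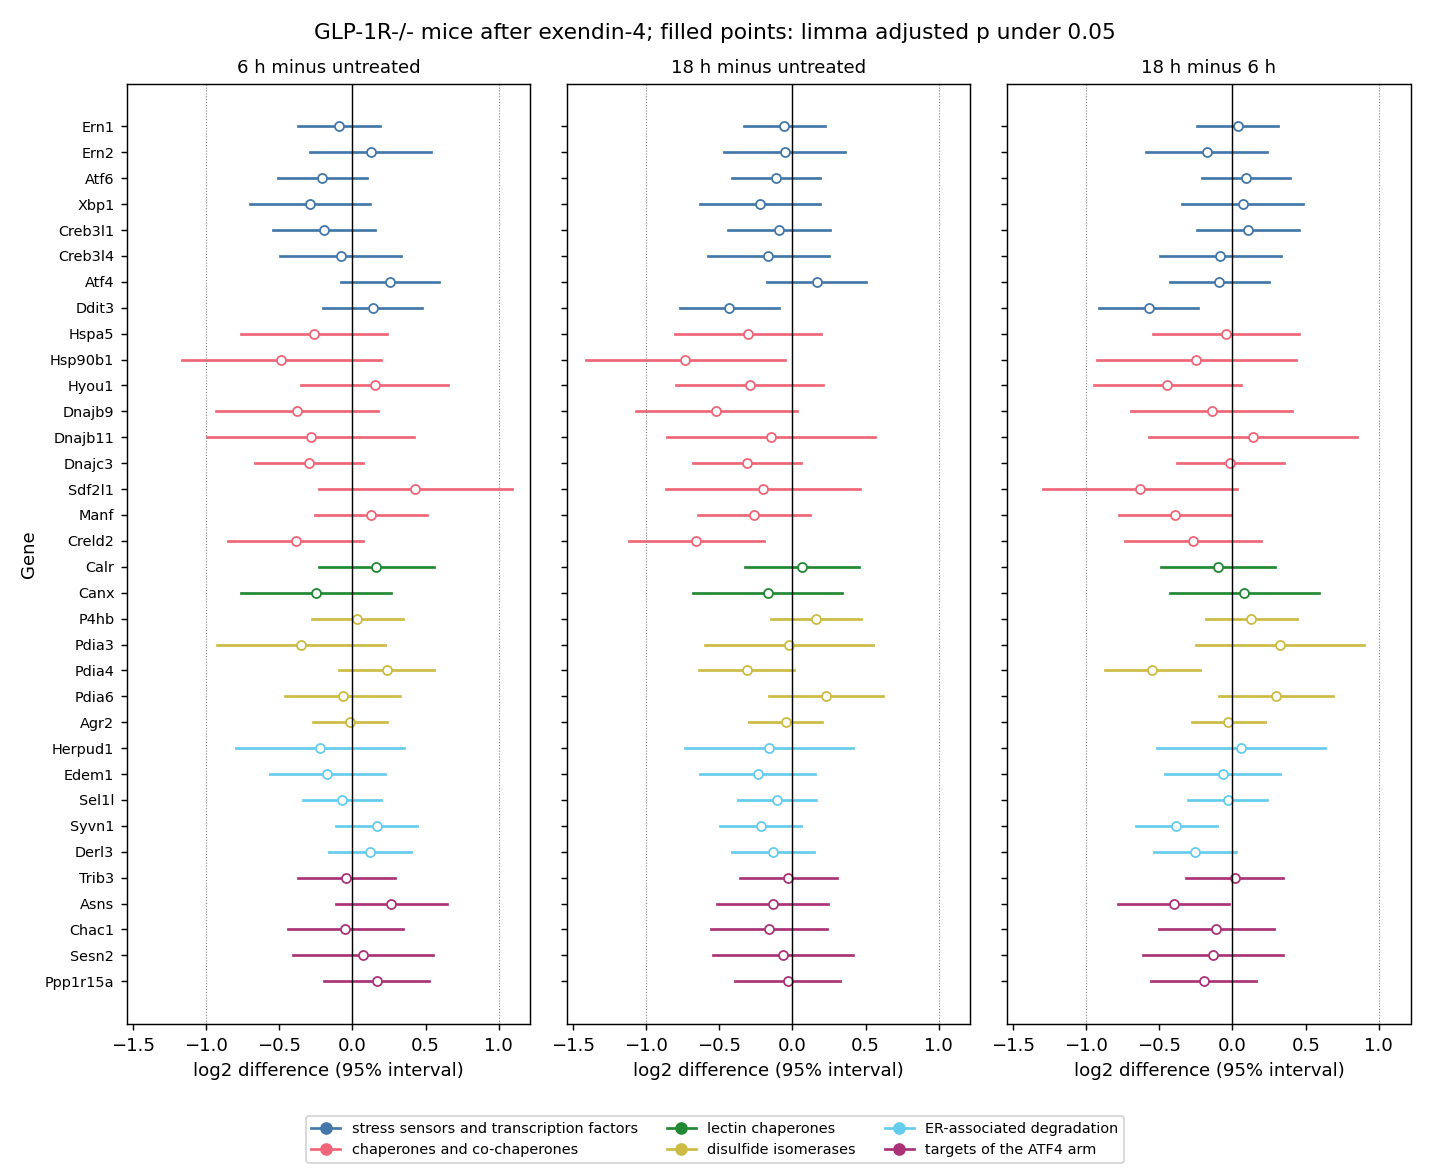
Log2 differences between GLP-1R-/- groups of 3 mice for the 34 genes, as points with unadjusted 95% intervals from limma, coloured by functional class; a filled point would mark an adjusted p under 0.05. No point is filled, and 30 of the 34 lie left of 0 at 18 h against untreated knockouts, with Hsp90b1 and Creld2 farthest left.

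Whether the response to exendin-4 depended on the receptor was tested as the change in knockouts minus the change in wild-type mice. At 6 h none of the 34 genes was called (limma), where 0.376% of all genes were, and 0 had an unadjusted p under 0.05, where 1313 of the 12775 genes tested did. At 18 h none was called, where 0.0235% of all genes were, and 1 had an unadjusted p under 0.05, where 601 of the 12775 did. Herpud1 at 6 h had the more positive change in knockouts, -0.22 in knockouts and -0.72 in wild-type mice, a difference of 0.50 (standard error 0.383, adjusted p = 0.661 by limma). Without replicate 13 the knockout change was 0.24 and the difference was called, at 0.96 (standard error 0.217, adjusted p = 0.0493 by limma), where 0.853% of all genes were called, with an adjusted p of 0.0305 to 0.851 under 18 alternatives. Atf4 at 18 h gave 0.58 (standard error 0.226, adjusted p = 0.91 by limma), with changes of 0.17 in knockouts and -0.41 in wild-type mice. Hsp90b1 at 6 h gave 0.45, and 0.16 without replicate 13, and was called in neither fit.

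The difference between 18 h and 6 h was set against itself across genotypes in the same way, in a contrast added after the data had been seen. None of the 34 genes was called (limma), where 1.54% of all genes were, and 4 had an unadjusted p under 0.05, where 1887 of the 12775 genes tested did. Without replicate 13 none was called, where 2.22% of all genes were, and 7 had an unadjusted p under 0.05, where 1930 of the 12775 did. Atf4 was more positive in knockouts by 0.62 (standard error 0.226, adjusted p = 0.205 by limma). Chac1 had a difference of -0.77 (standard error 0.263, adjusted p = 0.17 by limma) in the same contrast, and Pdia4 one of -0.70 (standard error 0.218, adjusted p = 0.126 by limma). Without replicate 13 the 3 differences were 0.54, -0.78 and -0.63. The calls of Atf4 and Chac1 in wild-type mice are therefore not shown to differ from the knockout values.

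The stress sensors and the genes of mucous secretion had these levels over the 6 groups. Agr2 (ENSMUSG00000020581_at), needed for mucin folding in the gut, averaged between 13.56 and 13.90 over the groups, the lowest in knockouts at 18 h and the highest in wild-type mice at 6 h. Ern2 (ENSMUSG00000030866_at), the mucosal form of IRE1, averaged between 12.13 and 12.31, and Ern1, the form found in most tissues, between 6.11 and 6.20. Of the membrane-bound transcription factors of secretory cells, Creb3l1 averaged between 11.69 and 12.01 and Creb3l4 between 11.09 and 11.44. Atf6 averaged between 6.86 and 7.06 and Xbp1 between 12.10 and 12.45, with replicate 13 at 11.50 below every other array. None of these 7 genes was called in any of the 12 comparisons. Levels of different genes come from different probes and are not compared with each other.

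The remaining genes were described by their group means. Among chaperones of the BiP machinery, Hspa5 averaged 12.35 ± 0.07 in untreated knockouts and 12.03 ± 0.25 in untreated wild-type mice, and Hyou1, the exchange factor of BiP, 7.23 ± 0.48 and 6.86 ± 0.26 in the same groups (SD, n = 3 each). Calr, the soluble lectin chaperone, had non-overlapping groups between genotypes at 6 h and 18 h, with knockout differences of 0.40 (standard error 0.185, adjusted p = 0.206 by limma) and 0.30 (standard error 0.185, adjusted p = 0.589 by limma), and without replicate 13 the 6 h value was 0.40. Pdia3, the isomerase that works with Calr and Canx, differed by 0.42, 0.089 and 0.40 between knockouts and wild-type mice untreated, at 6 h and at 18 h, and by 0.40 at 6 h without replicate 13. P4hb differed by 0.15, 0.11 and 0.26, and Pdia6 by -0.038, -0.0018 and 0.26. Without replicate 13 the 6 h differences were 0.19 for P4hb and 0.24 for Pdia6. Ppp1r15a, which ends the stress response by helping to dephosphorylate the initiation factor eIF2, averaged between 7.42 and 7.81 over the 6 groups, and Sesn2, a stress-induced regulator of growth signalling, between 6.97 and 7.25.

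The 9 genes with an ER stress element in their window were set beside the 20 with a window and no such match, as a description made after the values were seen. In untreated knockouts against untreated wild-type mice the 9 differed by -0.074 to 0.62 with a median of 0.32, and the 20 by -0.25 to 0.75 with a median of 0.11. Between genotypes at 6 h, with replicate 13 included, the medians were 0.107 for the 9 and 0.115 for the 20, and at 18 h 0.22 and 0.023. The 9 then ranged at 6 h from -0.11 to 1.08 and the 20 from -0.36 to 1.15. Without replicate 13 the 9 lay between 0.18 for Syvn1 and 0.78 for Hsp90b1. The 20 lay between -0.52 for Trib3 and 1.51 for Sdf2l1. The closeness of the 6 h medians therefore rests on a fit that holds that array. In wild-type mice at 6 h against untreated the medians were 0.071 for the 9 and -0.0013 for the 20. The ranges of both sets overlapped in each comparison, and Dnajb9 and Pdia4, which have no match, were among the genes with larger genotype differences.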

How the data were processed

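Gland RNA was hybridised to Affymetrix arrays. The authors deposited 1 log2 signal per gene and array, and RMA is the tool listed for it, per the submitters' processing notes. This method subtracts background, brings all arrays to a common distribution and fits 1 value to the probes of a gene, so that small signals show reduced folds and no gene is scored absent. Array model: not given in the sources used here. Arrays have no read depth, and their number limits the precision.

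Genes with at least 3 of 18 arrays above the 30th percentile of all values (4.79) were tested, 12775 of 17204. One mean per group was fitted with limma 3.58.1 in R 4.3.3 to all 18 arrays, with eBayes and two-sided, Benjamini-Hochberg adjusted p-values. There were 11 planned contrasts, and the genotype by time contrast was added later. The test was checked on simulated data. The 34 genes, the lists and the tests were chosen with earlier results of these data known. Genes given array by array were those called in a contrast or, in a class with none, the one with the largest 6 h difference in wild-type mice, and 7 more were added after their values were seen, as named in the text. The fixed lists of other pathway genes and cell type markers were not used here, since no table paired those symbols with the identifiers. Alternatives were other filters, array weights, a trended robust prior, median centring, fits to the groups compared and leaving out each array. Leaving out replicate 13 was not planned for comparisons that do not use the knockout 6 h group.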

Additional observations from a re-analysis of the deposited data

How the results depend on the processing

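No paired analysis was possible because the labels number every array once across the series, so that no groups share replicate numbers. The counts of the 34 genes called were the same without the dim-gene filter, with the stricter filter and with arrays centred on their medians. Weighting arrays by quality put replicate 13 at 0.084 and called, of the 34 genes and with the share of all tested genes called in brackets, 2 (9.73% of all) in wild-type mice at 6 h against untreated, 7 (26.8% of all) at 18 h against 6 h, 3 (3.56% of all) in knockouts at 18 h against 6 h, 10 (17.9% of all) between genotypes at 6 h, 6 (12.4% of all) between genotypes at 18 h, 1 (2.22% of all) for genotype by treatment at 6 h and 4 (11.8% of all) for genotype by time. The median differences were then -0.21 in knockouts at 18 h against 6 h and 0.23 between genotypes at 6 h. Fits to the groups compared called 2 (2.86% of all) in wild-type mice at 6 h against untreated, 1 (12.9% of all) at 18 h against 6 h and 0 (0.767% of all) between genotypes at 6 h. A trended robust prior called 0 (1.32% of all) between genotypes at 18 h.

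Leaving out single arrays, replicate 13 included, gave 0 to 1 calls in wild-type mice at 6 h against untreated, 0 to 3 at 18 h against 6 h, 1 to 6 between genotypes at 6 h, 0 to 1 between genotypes at 18 h and 0 to 1 for genotype by treatment at 6 h. The median difference then lay between -0.22 and -0.030 in knockouts at 18 h against 6 h, 0.098 and 0.29 between untreated genotypes, 0.067 and 0.26 between genotypes at 6 h, and -0.058 and 0.12 for genotype by treatment at 6 h. It ranged over -0.067 to 0.088 in wild-type mice at 6 h against untreated, -0.18 to -0.018 at 18 h against untreated and -0.093 to -0.0019 at 18 h against 6 h, over -0.10 to 0.033 in knockouts at 6 h and -0.21 to -0.094 at 18 h against untreated, 0.087 to 0.21 between genotypes at 18 h, -0.18 to 0.018 for genotype by treatment at 18 h and -0.084 to 0.042 for genotype by time. Of the 34 genes, leaving out replicate 13 turned the sign of 8 between genotypes at 6 h, 13 in knockouts at 6 h against untreated, 9 in knockouts at 18 h against 6 h, 9 for genotype by treatment at 6 h and 10 for genotype by time. Between genotypes at 6 h these included Dnajb11 (-0.17 with it, 0.42 without), Hspa5 (-0.0096, 0.40), Canx (-0.11, 0.23) and Pdia6 (-0.0018, 0.24). Other single arrays turned signs among the genes followed under every setting for Canx in wild-type mice at 6 h (-0.023 without untreated replicate 1, and 0.37 without replicate 19) and for Creld2 between genotypes at 6 h (-0.0038 without knockout replicate 14, -0.12 without replicate 15, and 0.43 without replicate 13). The cause was not tested.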
